A study of Mus musculus with 3 samples.

Results

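The 7 genes described here encode tissue-homing chemokine receptors, 6 of the CC family (*Ccr3*, *Ccr4*, *Ccr6*, *Ccr8*, *Ccr9* and *Ccr10*) and the CX3C receptor *Cx3cr1*. They were chosen by name among the 25759 genes listed for each library, and all 7 were found. The study itself named all 7 from these same libraries, so their counts below are descriptions and not independent evidence of a direction. RNA was sequenced from TFR cells, follicular regulatory T cells that enter B-cell follicles and restrain the germinal center reaction, sorted as B220-CD4+CXCR5+GITRhi cells with the Blimp-GFP reporter from spleen and mesenteric lymph nodes.

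There were 3 libraries, 1 per genotype. The genotype *Nfatc1* fl/fl.*Prdm1* gfp/+.FIC, labelled NFATc1-deficient, gave the library labelled N. The genotype *Nfatc1* caaA.*Prdm1* gfp/+.FIC, with a constitutively active NFATc1/αA, gave the library labelled αA, and *Nfatc1* caaA.*Prdm1* gfp/fl.FIC, with Blimp-1 removed as well, the library labelled PαA. All 3 genotypes carried 1 *Prdm1* gfp reporter allele and FIC, a Cre made from the *Foxp3* locus, which directs recombination to cells that use *Foxp3*. The mice were on the C57BL/6J background, received 125 µg NP-KLH in alum and a boost on day 7, and were analysed on day 10, and 10 ng of RNA went into each library. Age and the number of mice behind a library are not given in the sources used here. With 1 library per genotype no test was possible, no p-value is given, and every ratio compares libraries, not genotypes.

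Chemokine receptors are G protein-coupled receptors that steer migrating leukocytes along gradients of small secreted proteins. CCR4, CCR8 and CCR10 are known for homing to skin and other barrier tissues, CCR9 for homing to the small intestine, CCR6 for positioning in mucosal lymphoid tissue and inflamed sites, CCR3 for eosinophils and some T cells, and CX3CR1 for binding fractalkine on endothelium. Regulatory T cells that have left the lymphoid organs carry several of them, whereas follicular cells rely on CXCR5.

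Library totals, in reads, came to 29726219 (N), 27239921 (αA) and 25465829 (PαA). *Nfatc1* had an RPKM (reads scaled to exon length and library total) of 63.6, 62.9 and 32.4 in N, αA and PαA. This order does not follow the NFATc1 part of the labels. These are whole-gene values, and single exons, such as a floxed one, were not analysed here, so they cannot decide whether a label holds. N, αA and PαA therefore stand for what the libraries are labelled, and every direction given here depends on those labels. *Prdm1*, which encodes Blimp-1, had 25.6, 24.9 and 10.0 and was lowest in PαA, the library also labelled Blimp-1-deficient. The sort markers *Cd4* (488, 396 and 341) and *Cxcr5* (48.3, 81.3 and 47.6) were present in all 3 libraries. *Tnfrsf18*, which encodes the sort marker GITR, had 303, 217 and 145, and *Foxp3* 32.7, 20.9 and 15.3. Both were past 2-fold lower in PαA than in N, with log2 ratios of -1.07 (95% interval -1.12 to -1.02) and -1.10 (-1.19 to -1.02), and short of it with TMM scaling (-0.84 and -0.87), which centres the libraries on the bulk of their genes. Summed over 5 markers of regulatory T cells, the RPKM was 550, 494 and 265, and over 5 markers of follicular T cells 710, 619 and 419, so both lists were lowest in PαA. Their part in the receptor results was not tested, and in a bulk sample fewer cells of a type and less RNA per cell cannot be told apart.

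The library labelled PαA held the highest *Ccr6*, *Ccr10* and *Cx3cr1* levels of the 3 libraries and the lowest *Ccr3*, *Ccr8* and *Ccr9* levels. *Ccr4* was lowest in αA, and *Ccr9* in αA stood between its levels in N and PαA. The summed RPKM of the 7 receptors was 178 in N, 130 in αA and 164 in PαA. *Ccr8* made up 43.0% of that sum in N, 55.3% in αA and 17.6% in PαA. *Ccr6* made up 6.38%, 9.63% and 28.7%, and *Ccr10* 0.339%, 0.919% and 13.9%. The leading receptor was thus *Ccr8* in N and αA and *Ccr4* in PαA.

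**Figure D1:**
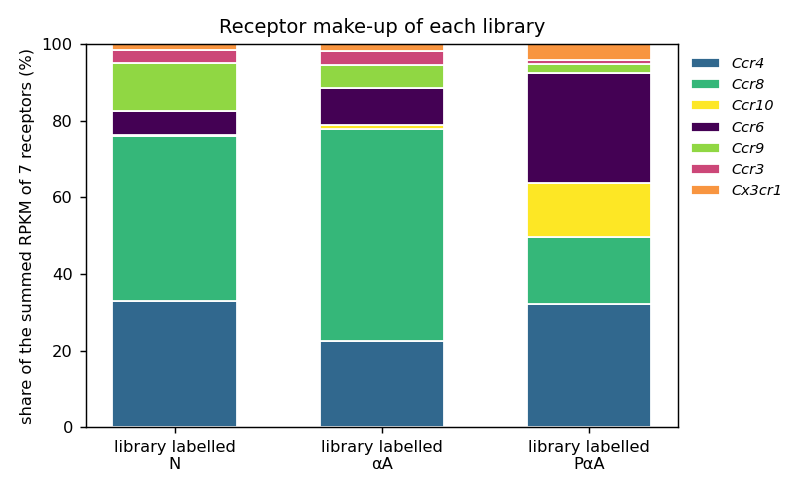
Stacked bars of the share (%) of the summed RPKM of the 7 receptors in each of the 3 libraries, 1 library per genotype, without replicates. *Ccr8* fills 55.3% of the bar of αA and 17.6% of that of PαA, while *Ccr6* and *Ccr10* fill 28.7% and 13.9% in PαA.

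A gene counted as past the thresholds when its RPKM exceeded 5 in any of the 3 libraries and its ratio exceeded 2 in either direction. All 7 receptors passed the first condition. Between αA and N, 2 of the 7 were past the thresholds, *Ccr4* and *Ccr9*, both lower in αA, and 0 were higher. Of all 7017 genes above the RPKM threshold, 4.25% were past it in that comparison, 1.44% higher and 2.81% lower. Between PαA and αA, 6 of the 7 were past the thresholds, 3 higher and 3 lower, against 4.63% of all genes, 2.18% higher and 2.45% lower. The same 6 receptors were past them between PαA and N in the same directions, against 10.3% of all genes, 2.57% higher and 7.77% lower. Nothing is read from these shares, because the receptors had been picked from these libraries. The comparisons also share libraries, αA being part of the first and second and PαA of the last 2.

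**Figure D2:**
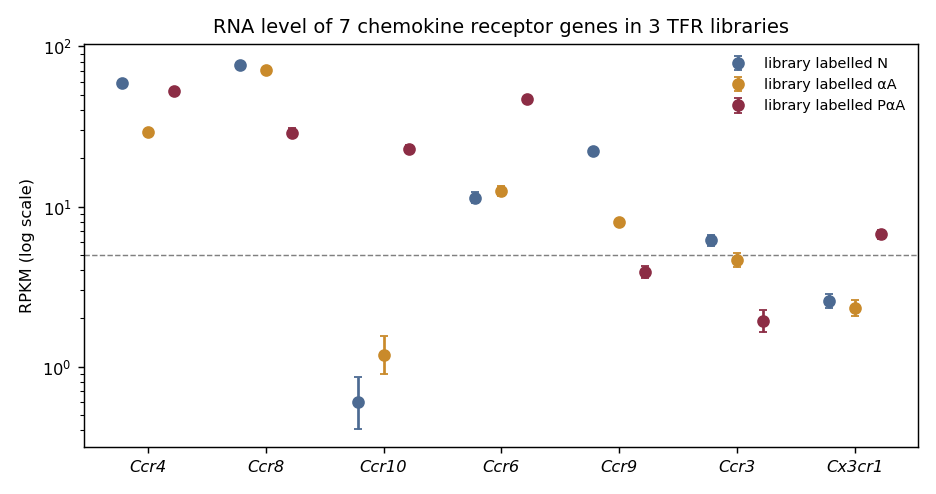
RPKM (log axis) of the 7 receptors in the 3 libraries, points with exact Poisson 95% intervals of the exon reads, which cover counting error only, and the RPKM threshold of 5 as a dashed line. *Ccr10* stands at 0.604 in N, 1.19 in αA and 22.9 in PαA, the widest span of the 7.

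In N the order of RPKM was *Ccr8*, *Ccr4*, *Ccr9*, *Ccr6*, *Ccr3*, *Cx3cr1* and *Ccr10*. In αA *Ccr6* and *Ccr9* changed places. In PαA the order was *Ccr4*, *Ccr6*, *Ccr8*, *Ccr10*, *Cx3cr1*, *Ccr9* and *Ccr3*. No 2 neighbours in these orders had overlapping counting intervals. The interval of a level is the exact Poisson 95% interval and that of a ratio the exact Clopper-Pearson 95% interval. The libraries were made by PCR and molecular identifiers are not mentioned for them, so both kinds cover counting error only.

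Among the receptors of barrier tissues, *Ccr4* encodes the receptor for CCL17 and CCL22. It lies at chr9:114490316-114504916 of GRCm38 on the minus strand, with its coding sequence in a single exon in every coding transcript of GENCODE M21. In N, αA and PαA it had 5393, 2466 and 4159 exon reads, with RPKM values of 58.7, 29.3 and 52.8. αA was thus the low library, with PαA close to N. The log2 ratio of αA to N was -1.003 (95% interval -1.07 to -0.93), just past the threshold with a ratio of 0.499, and was -0.84 with TMM scaling. PαA against αA gave 0.85 (0.78 to 0.92), just short of the threshold. PαA against N gave -0.15 (-0.21 to -0.09), and 0.08 with TMM scaling, so the direction of that small difference depended on the scaling.

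*Ccr8* encodes the receptor for CCL1 and CCL8 and is known as a marker of tissue regulatory T cells. It lies at chr9:120092114-120094906 on the plus strand. It had 2675, 2294 and 866 exon reads in the 3 libraries, in the order N, αA and PαA that is kept below, and its RPKM was 76.6, 71.7 and 28.9. N and αA were close to each other and PαA was low. The log2 ratio was -1.31 (-1.42 to -1.19) for PαA against αA and -1.40 (-1.52 to -1.29) for PαA against N. For αA against N it was -0.10 (-0.18 to -0.01), and 0.07 with TMM scaling. Reads across its exon-exon junction, 238, 230 and 59, were likewise lowest in PαA, with a log2 ratio of -1.92 (-2.36 to -1.50) against αA.

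*Ccr10* encodes the receptor for CCL27 and CCL28, chemokines of skin and mucosal epithelium, and is also known from IgA plasma cells. It had the largest ratio of the 7. Its exon reads were 31, 56 and 1005, and its RPKM 0.604, 1.19 and 22.9. PαA stood far above both other libraries. The log2 ratio was 4.26 (3.87 to 4.68) for PαA against αA and 5.24 (4.73 to 5.81) for PαA against N. αA against N gave 0.98 (0.32 to 1.66), just short of the threshold, from few reads, and 1.14 with TMM scaling.

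The position of *Ccr10* bears on how its reads were counted. It lies on the minus strand at chr11:101172997-101175443, wholly inside *Cntnap1* (chr11:101170523-101190724), a gene of the plus strand for a neuronal adhesion protein. In GENCODE M21 none of its exon bases falls on an exon of another gene. Of its 1005 exon reads in PαA only 59 (5.87%, exact interval 4.50% to 7.51%) were counted as unique, against at least 99.7% for each of the other 6 receptors in every library. All 59 were reads across the exon-exon junction. In N and αA, 0 of 31 and 0 of 56 were unique. A floor of 3 reads is a share of 9.68% and 5.36% there, and the exact upper bounds, 11.2% and 6.38%, both include the share in PαA, so no difference in this share was detectable at this depth. The same held for other genes in such a position. Of 216 genes with more than 1 exon and at least 100 exon reads in PαA that lie wholly inside another listed gene, 207 (95.8%) had as many unique reads as junction reads. Among 6288 such genes that overlap no listed gene, 18 (0.286%) did. This comparison was added after the data were seen. The library kit is not described as marking strand. A single read on a *Ccr10* exon can therefore not be assigned to *Ccr10* rather than to the surrounding *Cntnap1* intron, unless it crosses the *Ccr10* junction. In PαA *Cntnap1* had 190 gene reads, of which 189 were exon reads, and *Ccr10* had 0 intron reads beside its 1005 exon reads. The part of *Cntnap1* intron RNA in the *Ccr10* values was not tested.

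That junction is shown because the 59 reads that cross it are those that are tied to the spliced *Ccr10* transcript. It joins the first coding exon (chr11:101175400-101175423 for the bases in lower case) to the second (chr11:101174655-101174678, in capitals) of Ccr10-201 across an intron of 721 bases, read on the minus strand in the GENCODE M21 transcript, GRCm38.
Ccr10 junction: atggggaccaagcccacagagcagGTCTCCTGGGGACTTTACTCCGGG
Junction reads numbered 0, 0 and 59. Taking a floor of 3 reads in αA and scaling to all junction reads of a library, PαA was higher by a log2 ratio of at least 4.34, and the counting interval of that floored ratio was 2.73 to 6.66. *Cntnap1* itself had 4, 0 and 189 exon reads, of which 4, 0 and 35 crossed its own junctions, and its RPKM in PαA was 1.36 against 22.9 for *Ccr10*. Both genes of the locus were thus highest in PαA, while *Ezh1*, the next gene above *Ccr10*, had an RPKM of 11.6, 10.6 and 9.71.

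Plasma cells also carry *Ccr10*, so their markers were read beside it. Of 8 such markers *Igha*, the gene of the IgA heavy chain, has no exon length and is not in the sum. Over the other 7 the summed RPKM was 117, 136 and 172. *Jchain*, the joining chain of secreted antibodies, had 44.3, 58.4 and 94.8, and *Sdc1*, which encodes syndecan-1, 0.744, 1.03 and 5.97. *Tnfrsf17*, which encodes the plasma cell receptor BCMA, had 0 exon reads in PαA, where 7 reads fell on the gene outside its exons. The part of such cells in the *Ccr10* values was not tested. Over 7 markers of B cells the sum was 17.4, 13.8 and 15.1.

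*Ccr6*, the receptor for CCL20, lies at chr17:8236043-8257127 on the plus strand. Its exon reads were 685, 689 and 2437, and its RPKM 11.4, 12.5 and 47.2. The values of N and αA lay close together and PαA stood above both. The log2 ratio was 1.92 (1.80 to 2.04) for PαA against αA and 2.05 (1.93 to 2.18) for PαA against N. For αA against N it was 0.13 with an interval that includes 0 (-0.02 to 0.29). Junction reads gave a different value in that comparison. They numbered 51, 24 and 89, which gives αA against N a log2 ratio of -0.88 (-1.65 to -0.15). Intron reads of *Ccr6* were 23, 68 and 137, or 3.25%, 8.98% and 5.32% of its exon and intron reads, so αA had the largest intron share. Over all genes introns took 3.62%, 5.30% and 3.91% of gene reads.

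*Ccr9*, the receptor for the intestinal chemokine CCL25, was lower in αA than in N and lower again in PαA. It lies at chr9:123678439-123784330 on the plus strand. Exon reads were 3697, 1210 and 554, and the RPKM 22.3, 7.95 and 3.89. The log2 ratio was -1.49 (-1.58 to -1.39) for αA against N and -1.03 (-1.18 to -0.88) for PαA against αA, the latter -0.96 with TMM scaling and then short of the threshold. PαA against N gave -2.52 (-2.65 to -2.39), the lowest ratio of the 7. Its junction reads, 101, 27 and 10, followed the same order. Unlike most CC receptor genes it has a coding junction, which is shown because part of those reads can come from it. In Ccr9-203 it joins exon 2 (chr9:123774576-123774596, lower case) to exon 3 (chr9:123779276-123779299, capitals) across an intron of 4679 bases in GRCm38.
Ccr9 junction: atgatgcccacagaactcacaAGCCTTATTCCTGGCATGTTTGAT
*Ccr9* is also carried by plasmacytoid dendritic cells. Over 7 dendritic cell markers the summed RPKM was 3.77, 3.61 and 5.76, and *Siglech*, a marker of the plasmacytoid type, had 0.288, 0.0543 and 0.0348. The part of such cells was not tested.

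The gene body of *Ccr9* as listed also holds *Lztfl1*, a gene of the opposite strand for a protein of cilia transport. *Lztfl1* had 2193, 682 and 257 exon reads, with log2 ratios of -1.56 (-1.69 to -1.43) for αA against N and -1.31 (-1.52 to -1.10) for PαA against αA. Its junction reads, which belong to its own spliced transcripts, numbered 331, 106 and 34. In GENCODE M21, 2201 of the 10260 exon bases of *Ccr9* fall on exons of other genes, but the deposited gene model is shorter, at 5588 bases, and at least 99.7% of the *Ccr9* exon reads were counted as unique. *Ccr9* and *Lztfl1* were therefore both highest in N and lowest in PαA. *Slc6a20a*, which also overlaps the listed span of *Ccr9*, had few exon reads, 27, 9 and 12, and was lowest in αA. Around these genes stands a receptor cluster of chromosome 9, from *Slc6a20a* to *Ccr2*, a range chosen after values were seen. It holds 10 genes with an exon length, 7 of them receptors, and 9 had reads. *Cxcr6*, which encodes the receptor for CXCL16, had an RPKM of 88.9, 143 and 191 and was thus highest in PαA, while *Ccr1* had 4.98, 3.07 and 2.08. Most *Cxcr6* reads were not counted as unique. Its exon reads were 5101, 7546 and 9371, of which 204, 265 and 369 were unique, all of them junction reads.

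**Figure D3:**
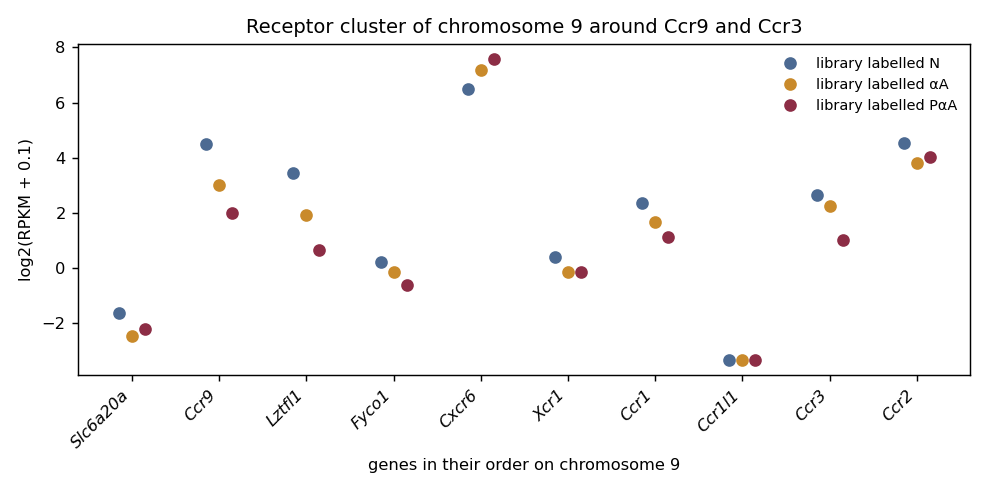
log2(RPKM + 0.1) of 10 genes of the chromosome 9 cluster in their genomic order, 1 point per library. *Ccr9* and *Lztfl1* step down from N to αA to PαA, whereas *Cxcr6* steps up, from 88.9 to 143 to 191 RPKM, mostly from reads not counted as unique.

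*Ccr3*, the eotaxin receptor known from eosinophils and mast cells, lies in the same cluster at chr9:124021972-124031689 on the plus strand. It had 598, 415 and 161 exon reads and an RPKM of 6.15, 4.66 and 1.93, above 5 only in N. The log2 ratio was -0.40 (-0.59 to -0.22) for αA against N, -1.27 (-1.54 to -1.003) for PαA against αA and -1.67 (-1.93 to -1.42) for PαA against N. Its junction reads numbered 31 in N and 15 in αA, or 5.18% (3.55% to 7.28%) and 3.61% (2.04% to 5.89%) of its exon reads. In PαA 0 of 161 crossed the junction, where a floor of 3 reads is a share of 1.86%. The exact upper bound, 2.27%, was below the interval in N and inside that in αA. Over 7 eosinophil markers the summed RPKM was 5.07, 4.63 and 10.5, and *Il5ra* had 0 exon reads in all 3 libraries. Single markers differed in their order, *Prg2* having 3.73, 0.701 and 3.42 and *Ear2* 0.608, 3.01 and 4.59. The part of such cells in the *Ccr3* values was not tested.

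*Cx3cr1*, the fractalkine receptor of monocytes, NK cells and effector T cells, lies at chr9:119901616-120069879 on the minus strand, next to *Ccr8*. It had 345, 286 and 768 exon reads and an RPKM of 2.58, 2.33 and 6.69, above 5 only in PαA. The log2 ratio was 1.52 (1.32 to 1.72) for PαA against αA and 1.38 (1.19 to 1.57) for PαA against N. For αA against N it was -0.14 (-0.38 to 0.09), and 0.02 with TMM scaling. Junction reads were few, 7, 6 and 22. The neighbours *Cx3cr1* and *Ccr8*, 22234 bases apart, thus stood in opposite order, the first highest and the second lowest in PαA. Its listed span contains *Csrnp1*, whose RPKM was 13.9, 19.6 and 13.1, and 78 of its exon bases fall on exons of other genes in GENCODE M21, but all of its exon reads were counted as unique.

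Markers of other immune cells, among them cells that carry *Cx3cr1*, did not have a single order. Over 7 monocyte or macrophage markers the summed RPKM was 247, 176 and 218, of which *Lyz2*, encoding lysozyme, took 214, 134 and 184. Over 5 NK cell markers it was 7.32, 5.50 and 9.18, and over *Cd8a* and *Cd8b1* 9.27, 14.1 and 8.14. Over 8 neutrophil markers it was 37.5, 1.05 and 26.5, and 6 of them were at 0 in αA. The NK cell sum stood in the same order over the libraries as *Cx3cr1*, but its single markers did not all do so. The NK cell markers *Klra8* and *Klra4* had 0 exon reads in αA and PαA and were above 0 in N. The monocyte or macrophage sum followed *Lyz2*, while *Csf1r*, the receptor for the macrophage growth factor, had 6.25, 10.6 and 6.62. The part of these cells in the *Cx3cr1* values was not tested.

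**Figure D4:**
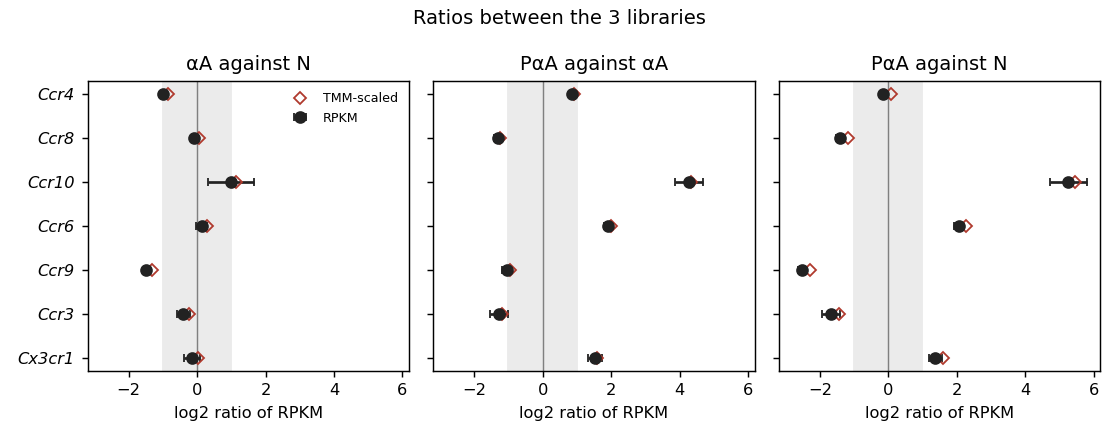
log2 ratio of RPKM of each receptor in the 3 comparisons, filled points with exact 95% counting intervals and open diamonds with TMM scaling, the band within 2-fold in grey. *Ccr10* reaches 4.26 and 5.24 in the comparisons with PαA, and *Ccr4* is the receptor that stays inside the band in both of them.

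The split between receptors was therefore 3 higher, 3 lower and 1 within 2-fold in PαA. The median log2 ratio of the 7 was -0.14 for αA against N, 0.85 for PαA against αA and -0.15 for PαA against N. Over all genes above the RPKM threshold the medians were -0.14, -0.06 and -0.19, and 0.02, 0.01 and 0.04 with TMM scaling, which moves every log2 ratio up by 0.16, 0.07 and 0.23. The medians of the 7 were then 0.02, 0.92 and 0.08, so the first and last changed sign. The median of the absolute log2 ratio was 0.401, 1.31 and 1.67 for the 7 receptors, which were picked from these libraries, and 0.219, 0.237 and 0.345 for all genes above the RPKM threshold.

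**Figure D5:**
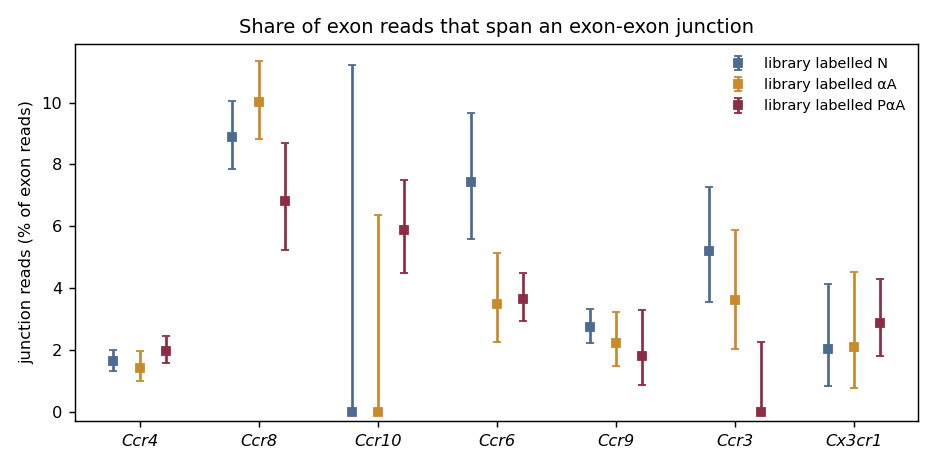
Reads across an exon-exon junction as a share (%) of the exon reads of each receptor in the 3 libraries, with exact Clopper-Pearson 95% intervals. The share of *Ccr3* is 5.18% in N and 0 of 161 reads in PαA, that of *Ccr10* is 5.87% in PαA, and the wide intervals of *Ccr10* in N and αA rest on 31 and 56 reads.

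The DNA before the start sites was read for the core letters that Blimp-1 and NFAT proteins are known to bind. Of the 7 genes, 6 matched the RefSeq promoter table (GRCm38.p6), with 7 start sites in all since *Ccr6* has 2, and *Ccr10* has no entry in it. GAAAG, a core of Blimp-1 sites, was searched on both strands of the 250 bases before each start. It was found at 4 of the 7 start sites, against 51.5% of 32851 start sites of all genes. The longer form AGNGAAAG was found at 0 of the 7, against 7.30%. GGAAA, the NFAT core, was found at 5 of the 7, against 55.6%, and it overlaps GAAAG in the run GGAAAG. The matches of *Ccr6*, higher in PαA, and of *Ccr3*, lower in PαA, are shown side by side with GAAAG or its complement in capitals, as 25 bases on the strand of the gene. The *Ccr6* windows lie before its second start at chr17:8242331-8242355, chr17:8242364-8242388 and chr17:8242300-8242324, and before its first at chr17:8235874-8235898. That of *Ccr3* lies at chr9:124021770-124021794.
Ccr6, second start, same strand: gttcagactgGAAAGttgtactatg
Ccr6, second start, opposite strand: tgccgacttaCTTTCagtgtaccat
Ccr6, second start, opposite strand, farther upstream: ccaaatgaaaCTTTCacgttgacgg
Ccr6, first start, opposite strand: acaggaccccCTTTCaaagaacttt
Ccr3, opposite strand: ctgtctcatcCTTTCcttaagagga
*Ccr4* also held GAAAG, while *Ccr8*, *Ccr9* and *Cx3cr1* held none in this window. Receptors that were higher and receptors that were lower in PαA were thus found both with and without it. Since more than 50% of all start sites hold these letters, a match is a description of the window. For *Ccr4*, *Ccr9* and *Cx3cr1* the windows lie inside the listed gene span. Bases upstream of that span were not searched.

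Genes whose pattern over the 3 libraries was most like that of a receptor were found by the distance between log2 RPKM centred on each gene's mean. The pool was 5934 genes above the RPKM threshold. All of them had at least 20 exon reads and at least 80% unique reads in every library. Nearest to *Ccr8* were *Hic1*, *Bmp7* and *Prdm1*, with *Prdm1* at a distance of 0.041, and 269 genes of the pool lay within 0.5. *Prdm1* is the gene removed by design in PαA, so a low value of *Prdm1* there was given in advance. Nearest to *Ccr6* were *Tmem176a*, *Ltb4r1* and *Pdlim1*, with only 15 genes within 0.5. *Ltb4r1*, which encodes a leukotriene B4 receptor, had an RPKM of 15.2, 17.4 and 62.4. Nearest to *Ccr9* were *Rin2*, *Tmem158* and *Il17a*, with 17 genes within 0.5. *Ccr10* had none within 0.5, and its nearest were *Mmp25* at 0.841, *Serpinb1a* and *Sdc1*. Nearest to *Cx3cr1* was *Ccl3* at 0.031, followed by *Dkkl1* and *Nsg2*. Nearest to *Ccr3* were *Jarid2*, *Pmepa1* and *Map3k4*, and to *Ccr4* *Pdzk1ip1*, *Cd96* and *Paxx*. With 3 libraries such likeness is easily met, as 342 genes within 0.5 of *Ccr4* show.

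Of 16 ligands of the 7 receptors, 4 were above the RPKM threshold, *Ccl1*, *Ccl3*, *Ccl4* and *Ccl5*. None was past 2-fold between αA and N. Between PαA and αA, 2 were higher, *Ccl3* with a log2 ratio of 1.51 (1.36 to 1.66) and *Ccl5* with 1.39 (1.35 to 1.43). Between PαA and N, 2 were higher, *Ccl3* with 1.41 (1.27 to 1.55) and *Ccl4* with 1.40 (1.28 to 1.53). *Ccl1*, a ligand of CCR8, had an RPKM of 11.1, 14.2 and 14.2, and so did not follow *Ccr8*. The median log2 ratio of the 4 was 0.13, 1.12 and 0.94 in the 3 comparisons. Beside these counts, 4.25%, 4.63% and 10.3% of all genes above the threshold were past 2-fold in the same comparisons.

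Of 25 other chemotactic receptors, 13 were above the threshold. Only *Ccr7*, the receptor that guides cells into T-cell zones, was past 2-fold between αA and N, with a log2 ratio of 1.44 (1.34 to 1.55). Between PαA and αA, 3 were higher and 0 lower. These were *Gpr15*, a gut-homing receptor, with 2.32 (2.15 to 2.49), *Ltb4r1* with 1.84 (1.72 to 1.97) and *S1pr1*, the receptor for egress from lymphoid organs, with 1.10 (1.06 to 1.14). Between PαA and N, 5 were higher and 0 lower. The 5 were *Ccr7*, *Cxcr6*, *S1pr1*, *Gpr15* and *Ltb4r1*, and with TMM scaling *S1pr4* joined them. The list's median log2 ratio was 0.21, 0.41 and 0.73. Among all genes above the threshold, 1.44%, 2.18% and 2.57% were higher past 2-fold in these comparisons, and 2.81%, 2.45% and 7.77% lower. *Ccr7* and *S1pr1* were named by the study from these libraries as well.

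Among genes of homing integrins, selectin ligands and partners, 13 of 17 were above the threshold. Between αA and N, 2 were lower. *Itgae*, the αE integrin chain that binds E-cadherin on epithelium, had RPKM values of 63.3, 16.8 and 19.3 and gave -1.91 (-1.98 to -1.85). *Itga4* gave -1.04 (-1.09 to -1.002), and -0.88 with TMM scaling. Between PαA and αA, 2 were higher, *Gpr15*, which stands in both lists, and *Fut7*. *Fut7*, a fucosyltransferase that makes selectin ligands for skin homing, had RPKM values of 2.97, 5.72 and 21.4 and gave 1.90 (1.73 to 2.07). *Fut7* and *Ccr10* were thus both highest in PαA. Between PαA and N, *Fut7*, *Gpr15* and *Lgals1* were higher and *Itgae* and *Itga4* lower. With TMM scaling *Itga4* was no longer past 2-fold in either comparison, while *Fut7* was higher in αA than in N and *Lgals1* in PαA than in αA. The list's median log2 ratio was -0.23, 0.20 and -0.06, and -0.07, 0.27 and 0.17 with TMM scaling. Shares of all genes above the threshold past 2-fold, without TMM scaling, were 4.25%, 4.63% and 10.3%.

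The machinery that couples such receptors to the cell was read as well. Of 28 listed genes for G proteins, arrestins, receptor kinases and RGS proteins, which shorten G protein signals, 26 names were found and 24 were above the threshold. None was past 2-fold between αA and N. Between PαA and αA, *Rgs2* was higher with a log2 ratio of 1.06 (0.89 to 1.24) and *Rgs16* lower with -1.30 (-1.43 to -1.18). Between PαA and N, *Rgs1* was lower with -1.57 (-1.67 to -1.47) and *Rgs16* with -2.13 (-2.25 to -2.02). Past 2-fold stood 4.25%, 4.63% and 10.3% of all genes above the threshold in the same comparisons. The list's median was -0.16, 0.04 and -0.10, and 0.0021, 0.11 and 0.13 with TMM scaling. *Gnai2*, the inhibitory G protein subunit through which chemokine receptors signal, had an RPKM of 439, 400.4 and 378.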

How the data were processed

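TFR cell RNA from 3 libraries, 1 per genotype, was analysed. Per the labels and the study's methods, the authors made poly(A) libraries (NEBNext), sequenced single reads, trimmed adapters, mapped them to GRCm38 and counted them in CLC Genomics Workbench with default settings. The annotation release is not given in the sources used here. The authors deposited, per gene, unnormalized counts of exon reads (total and unique), junction, intron and gene reads, and RPKM and TPM values derived from them. Reads counted as not unique are part of the total.

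Library totals were recovered from counts, exon length and RPKM. With them the deposited RPKM was rebuilt within 1% for all 9843, 9423 and 9307 genes with at least 100 exon reads. Ratios are of RPKM, with exact Clopper-Pearson intervals at 95%, and levels have exact Poisson intervals. A side with fewer than 3 reads was set to 3 and the ratio called a bound. Ratios and intervals were tested on simulated counts. Junction and unique reads were scaled to their own library sums. The study's filter was read on RPKM (above 5, ratio above 2). Alternatives were the deposited TPM, TMM factors of edgeR 4.0.16 (R 4.3.3), median-of-ratios factors, unique or junction reads, other thresholds, and a pseudocount of 1 or 0.1. Other steps used Python 3.11.15, pandas 2.3.3, numpy 2.4.6, scipy 1.17.1 and matplotlib 3.10.9.

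The receptors, gene lists and thresholds were chosen with earlier results of these data known. Genes named are the 7 receptors, genes that overlap or neighbour them, for each the 3 nearest patterns, the targeted genes, sort markers and *Foxp3*, and list members past 2-fold or needed for a receptor's result. Sequences come from GENCODE M21 transcripts and the RefSeq promoter table. Protein sequences were not used here. The values of 1 listed gene are not reported here.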

Additional observations from a re-analysis of the deposited data

Results flagged for a closer look

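Reads in listed genes with no exon length, which the comparisons did not use, were above the limit of 3 reads that a count of 0 allows beside a pair of the receptors. AC117245.3, 756 bases above *Ccr8* on the same strand, had 477, 346 and 95 gene reads in N, αA and PαA, with log2 ratios of -0.34 (95% interval -0.54 to -0.13) for αA against N and -1.77 (-2.11 to -1.44) for PαA against αA, so its reads stood in the same order as those of *Ccr8*. Gm2449, beside *Cx3cr1*, had 5 gene reads in N and 18 in αA and 0 in PαA.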

How the results depend on the processing

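No paired analysis was possible because there is 1 library per genotype, and for the same reason no library could be left out. Between αA and N the number of receptors past the thresholds, 2, became 1 with unique exon reads, 0 with a 3-fold threshold and 1 with 1 added to RPKM, and it stayed 2 with TMM and median-of-ratios factors, where *Ccr10* took the place of *Ccr4*. Between PαA and αA the 6 became 2 with a 3-fold threshold (*Ccr6* and *Ccr10*), 5 without *Ccr9* with TMM factors, 4 with an RPKM above 10 (without *Ccr3* and *Cx3cr1*) and 4 with 1 added to RPKM (without *Ccr3* and *Ccr9*). Between PαA and N the 6 became 4 with an RPKM above 10 (without *Ccr3* and *Cx3cr1*) and 4 with a 3-fold threshold (without *Ccr8* and *Cx3cr1*). *Ccr10* was not past the thresholds with unique exon reads, because the 59 reads these leave it in PαA do not reach the RPKM threshold. With a floor of 3 reads, its log2 ratio from unique reads was 4.40 for PαA against αA and 4.61 for PαA against N. The counting intervals of these floored ratios were 2.78 to 6.71 and 2.99 to 6.92. Of 141 recomputed ratios none past the thresholds changed sign. A sign change occurred in 4 small ratios, those of *Ccr6*, *Ccr8* and *Cx3cr1* for αA against N and of *Ccr4* for PαA against N. Depth limits *Ccr10* in N and αA, with 31 and 56 reads, and all junction values of *Cx3cr1*.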

Other observations

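Intron reads of *Cx3cr1* did not follow its exon reads. They numbered 51, 153 and 31 in N, αA and PαA, or 12.9%, 34.9% and 3.88% of its exon and intron reads, so the share was largest in αA, the library with the fewest exon reads. Of these intron reads 23, 105 and 23 were unique. The listed span of *Cx3cr1* holds other whole genes, among them *Csrnp1*, which was also highest in αA (RPKM 13.9, 19.6 and 13.1), and without strand their reads cannot be told apart. *Ccl20*, the ligand of CCR6, was below the RPKM threshold in all 3 libraries, with 26, 117 and 21 exon reads and 0, 32 and 2 junction reads, and was highest in αA, where *Ccr6* was not. Ligands of CCR4 and CCR10 were low or not detected. *Ccl22* had an RPKM of 0.380, 0.911 and 0.195, and *Ccl17* and *Ccl28* had 0 reads in all 3 libraries.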
